A study of Mus musculus with 7 samples.

Results

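Chemokines are small secreted proteins that guide the movement of leukocytes, and chemokine receptors are the G protein-coupled receptors through which cells sense them. The genes described here are those whose platform symbol is Ccl, Cxcl, Ccr or Cxcr directly followed by a number, read from probe sets that name a single gene. They were 45 of 18193 measured genes: 18 CC ligands, 13 CXC ligands, 9 CC receptors and 5 CXC receptors, read by 69 probe sets. The livers came from 4 miR-122 knockout and 3 wild-type mice, each on its own Affymetrix array, and values per array follow the order KO-03, KO-90, KO-91, KO-94 for the knockouts and WT-27, WT-103, WT-104 for the wild types. All 7 mice were 2 months old and of B6/129 background. The labels call the deletion a mir-122 knockout and name no Cre driver, sex, litter or batch. miR-122 dominates the microRNA pool of hepatocytes, and the question asked of the genotypes is which liver transcripts are at other levels without it. Since 0 probe sets name miR-122, the deletion itself was not checked.

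CC and CXC ligands are named for the spacing of their first cysteines, which are adjacent in CC ligands and separated by another residue in CXC ligands. Most inflammatory ligands share receptors and a receptor often answers several ligands, whereas homeostatic pairs such as Cxcl12 with Cxcr4 are more exclusive. In the liver, hepatocytes, Kupffer cells (the resident macrophages), sinusoidal endothelium, stellate cells and bile duct cells can all produce chemokines, and most of the receptors sit on leukocytes that pass through the organ.

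Every value below is a log2 expression value of a probe set, and a difference is knockout minus wild type on that scale. Values of different probe sets are not compared with each other. Medians of the 7 arrays were 4.65 to 4.72, and precision is limited by how few arrays there are. On each array the brightest of 27 Bacillus subtilis control probe sets (4.71 to 5.23) was taken as a floor, and a gene at or under it has only an upper bound. The median of the same control probe sets was 2.86 to 3.14 per array, so this floor is strict. KO-03 lay nearest the wild-type arrays on the first principal component of all genes, at -1.32, against 15.8 to 42.5 for the other knockout arrays and -32.3 to -20.1 for the wild-type arrays. The albumin transcript Alb and the other 4 hepatocyte markers averaged 13.71 to 13.78 per knockout array and 13.67 to 13.76 per wild-type array. Of these 5, 0 passed the test, beside 3.53% of all genes. Livers are mixtures, so fewer cells of a type and less RNA per cell cannot be told apart here.

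Few chemokine system genes passed the test, and they moved in both directions. Cxcl12 rose, Ccl9 and Cxcl11 fell, and 42 of the 45 genes did not pass limma at an adjusted p under 0.05. In either direction 3 of 45 passed, beside 3.53% of all genes. The gene called higher is 2.22% of the members, beside 2.58% of all genes called higher, so that share is near the background. The 2 called lower are 4.44% of the members, beside 0.951% of all genes called lower. At an unadjusted p under 0.05, 10 members were higher (22.2%, beside 10.2% of all genes) and 2 were lower (4.44%, beside 6.23% of all genes). Differences were positive in 31 members and negative in 14, with a median of 0.17, against 0.01 over all genes. Without KO-03 the median was 0.057 and without KO-94 it was 0.11.

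By role, the CC ligands had a median difference of 0.07 (0 higher, 1 lower), the CXC ligands 0.24 (1 higher, 1 lower), the CC receptors 0.15 (0 and 0) and the CXC receptors 0.27 (0 and 0). All knockout arrays lay above all wild-type arrays in 6 members (13.3%), Cxcl12, Cxcl13, Ccl2, Ccl8, Ccr1 and Cxcr6, beside 9.15% of all genes. They lay below in Ccl9 and Cxcl11, beside 6.62% of all genes. Of the 45 members, 23 never exceeded the floor, 16 were above it on all 7, and 6 were mixed. Of all 18193 genes, 6111 never exceeded it. Of the 14 receptors, 11 were at or under the floor on every array, as were 12 of the 31 ligands, and a difference measured in such a gene is uncertain.

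**Figure D1:**
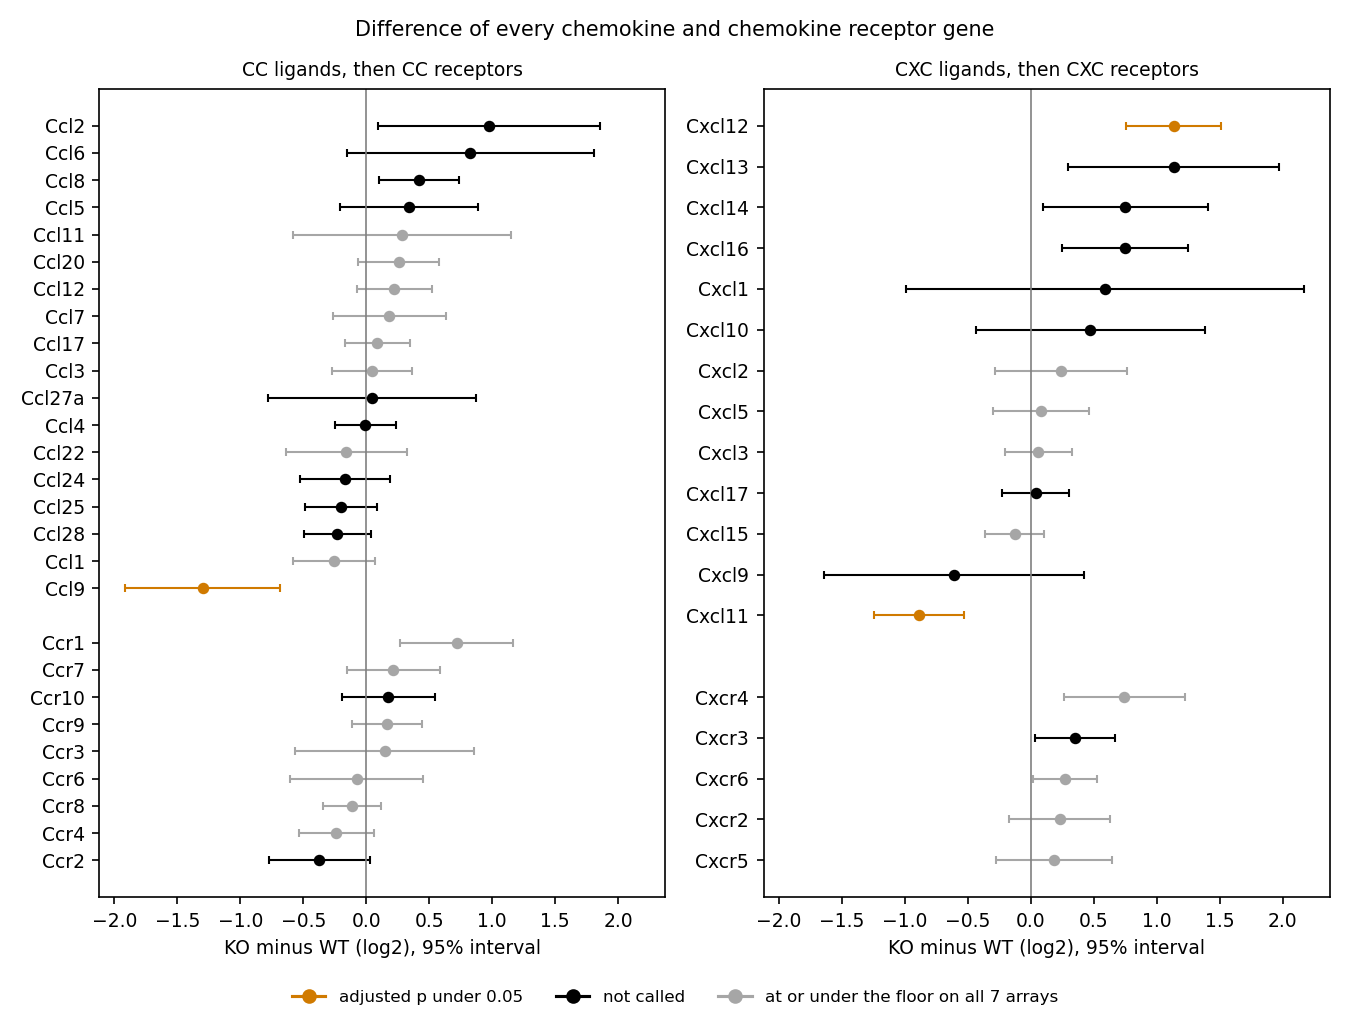
Difference of each of the 45 genes (x axis, knockout minus wild type, log2) with limma's 95% interval, CC family on the left and CXC family on the right, ligands above receptors. Orange marks the 3 genes that passed, Cxcl12 at 1.14, Cxcl11 at -0.89 and Ccl9 at -1.30, and grey the 23 genes that never exceeded the floor.

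Cxcl12, the stromal ligand that holds leukocytes and progenitor cells in their niches, was the only one of the 45 genes called higher in the knockout. It read 10.85, 11.49, 11.32 and 11.19 in knockout livers, against 9.91, 10.05 and 10.28 in wild-type livers. The groups did not overlap, and the lowest knockout array was KO-03. The means were 11.21 ± 0.27 (SD, n = 4) in knockout and 10.08 ± 0.19 (SD, n = 3) in wild type, a difference of 1.14 ± 0.17 (SE) or 2.20-fold, with a limma adjusted p of 0.00863. The call was lost when WT-103 was left out (limma adjusted p = 0.0551), with the difference then at 1.12.

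A second bright probe set of Cxcl12 averaged 10.93 ± 0.36 (SD, n = 4) in knockout and 10.02 ± 0.18 (SD, n = 3) in wild type. Its difference of 0.91 did not pass over all 45037 probe sets (limma adjusted p = 0.0651), where the first one did (0.0146). The last one differed by 0.13, and the mean of all its probe sets by 0.72 (limma adjusted p = 0.0416), over 1.5 times less than the one used. For Cxcr4, the signalling receptor of Cxcl12, all 7 arrays lay under the floor, so its level is only bounded. It read 4.03, 4.80, 4.77 and 4.37 in knockout livers, against 3.47, 3.72 and 4.04 in wild-type livers. Its difference of 0.74 did not pass (limma adjusted p = 0.108) but did without KO-03 (0.0258, difference 0.90). Ackr3, the scavenging receptor of Cxcl12 and no member by its symbol, was also under the floor throughout, with a difference of 0.79 (limma adjusted p = 0.142).

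Cell type markers that could move with Cxcl12 were read from lists of stellate and sinusoidal endothelial genes. Of 5 stellate markers, Pdgfrb at 1.03 and Dcn at 0.90 rose (limma adjusted p = 0.00816 and 0.0135). Des at 0.36, Reln at 0.34 and Lrat, of the opposite sign, at -0.13 did not pass. The mean of the list was 8.35 to 8.68 on knockout arrays and 7.96 to 8.07 on wild-type arrays. All 5 were above the floor. Of 5 sinusoidal endothelial markers 0 passed, beside 3.53% of all genes, with list means of 7.55 to 7.81 in knockout and 7.68 to 7.82 in wild type. Of 4 measured bile duct markers, Epcam and Krt19 rose, by at least 2.06 and 1.10 (limma adjusted p = 0.00846 and 0.0225), with Krt7 under the floor on every array and list means of 5.22 to 6.17 in knockout and 4.60 to 4.80 in wild type. The part of these cells in the Cxcl12 result was not tested.

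**Figure D2:**
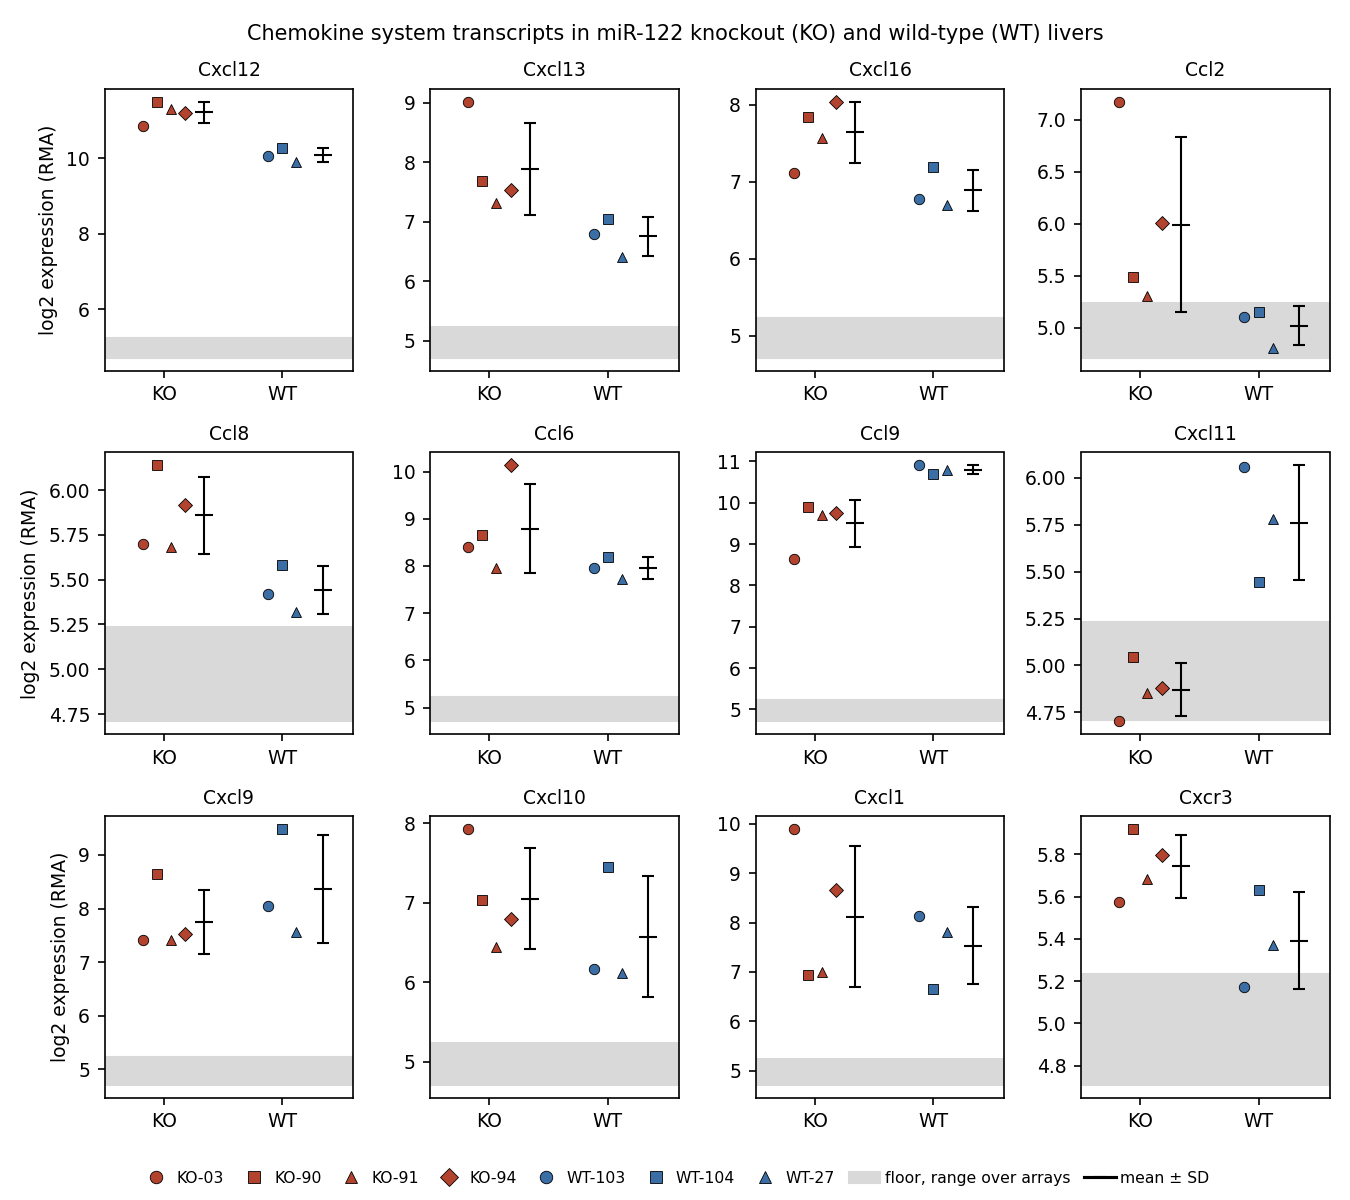
Log2 expression (y axis) of 12 chemokine system genes on each of the 4 knockout (KO, red) and 3 wild-type (WT, blue) arrays, with mean ± SD beside the points and the floor's range over arrays in grey; the y axes differ and do not start at 0. Cxcl12, Cxcl13, Ccl2 and Ccl8 have all knockout arrays above all wild-type arrays, Ccl9 and Cxcl11 have them below, and the remaining panels overlap.

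Ccl9, a ligand of Ccr1 found in mouse and made by macrophages among other cells, had the largest fall among the 45 genes. It read 8.65, 9.89, 9.71 and 9.75 in knockout livers, against 10.80, 10.90 and 10.69 in wild-type livers. The groups did not overlap, the wild-type arrays were close together, and KO-03 was well below the other knockouts. The means were 9.50 ± 0.57 (SD, n = 4) in knockout and 10.80 ± 0.11 (SD, n = 3) in wild type, a difference of -1.30 ± 0.27 (SE), with a limma adjusted p of 0.0374.

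That call was sensitive to the animals used. Without KO-03 the difference of Ccl9 was smaller, -1.02, and its limma adjusted p lower, 0.00257. Leaving out any of the other 6 arrays ended the call, at limma adjusted p of 0.0539 (KO-90), 0.0821 (KO-91), 0.0564 (KO-94), 0.113 (WT-27), 0.159 (WT-103) and 0.101 (WT-104), while the difference stayed between -1.43 and -1.25. A second probe set averaged 8.96 ± 0.49 (SD, n = 4) in knockout and 10.33 ± 0.09 (SD, n = 3) in wild type, and its difference of -1.37 passed among all probe sets (limma adjusted p = 0.0297), where the first did not (0.0599).

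The gene next to Ccl9 in the RefSeq annotation, Ccl6, encodes another Ccr1 ligand of mouse myeloid cells and had a difference of the opposite sign, which did not pass. It read 8.40, 8.66, 7.96 and 10.13 in knockout livers, against 7.73, 7.96 and 8.19 in wild-type livers. The groups overlapped and KO-94 was the high array. Its difference of 0.82 had a 95% interval of -0.16 to 1.81 (limma adjusted p = 0.396), and its second probe set differed by 0.81, also with KO-94 highest. Without KO-94 the Ccl6 difference was 0.38. The other ligands of this cluster did not pass either: Ccl5, which draws T cells, differed by 0.34 (0.12 without KO-90 and 0.51 without WT-104), Ccl3, at or under the floor throughout, by 0.05, and Ccl4 by -0.01 with a 95% interval of -0.25 to 0.23. Their receptor Ccr1, found on monocytes and neutrophils, read 4.09, 3.52, 3.64 and 4.31 in knockout livers, against 3.02, 3.35 and 3.13 in wild-type livers. The groups did not overlap, but every array was under the floor, and the difference of 0.72 ± 0.20 (SE) did not pass (limma adjusted p = 0.0974).

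Of 10 macrophage and Kupffer cell markers, set beside Ccl9 and Ccl6 because these cells make both, 0 passed, beside 3.53% of all genes. The list mean was 8.53 to 9.01 on knockout arrays and 8.16 to 8.69 on wild-type arrays, with all 10 genes above the floor. All 10 differences were positive, with a median of 0.19. Clec4f, which defines Kupffer cells in mouse, differed by 0.01, and Marco, a scavenger receptor, by 0.89 (limma adjusted p = 0.0667). Cd68 differed by 0.68 and C1qa by 0.48 (limma adjusted p = 0.214 and 0.310). Of 3 measured monocyte markers the endotoxin receptor Cd14 rose by 2.17 (limma adjusted p = 0.0286). Fcgr1 differed by 0.73 and did not pass (limma adjusted p = 0.241), and Itgam was under the floor on every array. The monocyte list mean was 5.72 to 7.17 in knockout and 4.87 to 5.22 in wild type. Their part in the chemokine results was not tested.

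The promoter windows of the called genes with an entry in the RefSeq table, Cxcl12 and Ccl9, are shown because these genes moved in opposite directions. Each runs from 250 bases before to 50 after the start in build GRCm38.p6. Cxcl12 lies at chr6:117168285-117168584 on the plus strand and Ccl9 at chr11:83578587-83578886 on the minus strand, both written 5′ to 3′ along the gene. Capitals mark matches, on either strand, to the core letters of a TATA box, TATAAA, and of a GC box, GGGCGG, the site of Sp1-type factors.
Cxcl12: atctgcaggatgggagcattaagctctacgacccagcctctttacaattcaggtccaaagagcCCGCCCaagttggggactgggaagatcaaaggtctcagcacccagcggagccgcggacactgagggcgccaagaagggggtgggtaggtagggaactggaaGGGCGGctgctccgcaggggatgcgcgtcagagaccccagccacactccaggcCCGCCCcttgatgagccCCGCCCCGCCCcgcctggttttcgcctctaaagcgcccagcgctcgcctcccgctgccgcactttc
Ccl9: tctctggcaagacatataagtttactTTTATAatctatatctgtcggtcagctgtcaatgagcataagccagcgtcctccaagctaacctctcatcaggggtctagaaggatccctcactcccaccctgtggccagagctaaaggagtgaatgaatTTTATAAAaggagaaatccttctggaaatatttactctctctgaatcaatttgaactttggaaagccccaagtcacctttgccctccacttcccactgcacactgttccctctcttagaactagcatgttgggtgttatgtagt
The Cxcl12 window held 5 GC box matches, 2 of which overlap by 1 base, and 0 TATA box matches. The Ccl9 window held 3 TATA box matches, 2 of which overlap on opposite strands, and 0 GC box matches. All 3 lie more than 50 bases before the start. Matches were counted anywhere in a window, so neither gene is assigned a promoter type from these counts. TATAAA occurs in 13.6% of all 32851 RefSeq windows and in 9 of the 32 chemokine system genes that had a window. GGGCGG occurs in 35.7% of all windows and in 6 of the 32. These are unlike measures, since the percentages count windows and the members were counted as genes. A member counted if any of its windows matched, and the 32 genes had 36 windows. A match describes letters, not a bound site.

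Cxcl9, Cxcl10 and Cxcl11 are the interferon-inducible ligands of Cxcr3, the receptor of effector T and NK cells. Cxcl11 fell in the knockout and the other two did not pass. Cxcl11 read 4.70, 5.05, 4.86 and 4.88 in knockout livers, against 5.78, 6.05 and 5.44 in wild-type livers. Knockout and wild-type values did not overlap, and every knockout array was at or under the floor while every wild-type array was above it. The means were 4.87 ± 0.14 (SD, n = 4) in knockout and 5.76 ± 0.31 (SD, n = 3) in wild type, a fall of at least 0.75 with the knockout arrays set to the floor (limma adjusted p = 0.0199 on the measured difference of -0.89 ± 0.16, SE).

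The second Cxcl11 probe set was no brighter than the floor on any array and differed by -0.20. With the mean of both, Cxcl11 lost its call, and it lost it too without KO-91 (limma adjusted p = 0.0649), WT-27 (0.0739) or WT-103 (0.0844). RefSeq's annotation of the C57BL/6J genome lists Cxcl11 as a transcribed pseudogene, the only member of the 45 not listed as protein coding, and the mice here were of mixed B6/129 background. Which allele each animal carried is not given by the labels.

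Cxcl9 read 7.42, 8.64, 7.42 and 7.53 in knockout livers, against 7.56, 8.05 and 9.49 in wild-type livers. The groups overlapped, with KO-90 and WT-104 high, and the difference of -0.61 did not pass (limma adjusted p = 0.575). Without WT-104 the Cxcl9 difference was -0.049, and without WT-27 it was -1.01. Cxcl10 read 7.93, 7.03, 6.44 and 6.79 in knockout livers, against 6.11, 6.17 and 7.45 in wild-type livers. It was high in KO-03 and WT-104, and its difference of 0.47 had a 95% interval of -0.44 to 1.38. Without KO-03 the Cxcl10 difference was 0.18, without WT-27 0.24, without WT-103 0.27 and without WT-104 0.91. Cxcr3 read 5.57, 5.92, 5.68 and 5.80 in knockout livers, against 5.37, 5.17 and 5.63 in wild-type livers, so that KO-03 and WT-104 alone overlapped. It was the only CXC receptor above the floor on all 7 arrays, and its difference of 0.35 did not pass (limma adjusted p = 0.252). Of 8 measured T and NK cell markers 0 passed, beside 3.53% of all genes, and 4 were under the floor throughout. Their list mean was 4.75 to 4.95 in knockout and 4.59 to 4.97 in wild type. Ifng, which induces these ligands, was under the floor on every array.

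Ccl2, Ccl7, Ccl8 and Ccl12 are neighbouring CC ligands that attract monocytes, in part through Ccr2. None of the 4 passed, and at an unadjusted p under 0.05 Ccl2 and Ccl8 were higher. Ccl2 read 7.17, 5.49, 5.30 and 6.01 in knockout livers, against 4.80, 5.10 and 5.15 in wild-type livers. There was no overlap between genotypes, but the knockouts spread over a much wider range than the wild types, led by KO-03. The means were 5.99 ± 0.84 (SD, n = 4) in knockout and 5.02 ± 0.19 (SD, n = 3) in wild type, a difference of 0.97 ± 0.39 (SE, 95% interval 0.09 to 1.85) with a limma adjusted p of 0.250. Without KO-03 the difference of Ccl2 was 0.58 (limma adjusted p = 0.128), over 1.5 times smaller.

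Ccl8 read 5.70, 6.14, 5.68 and 5.92 in knockout livers, against 5.32, 5.42 and 5.58 in wild-type livers. Each knockout liver read above each wild-type liver, and the difference of 0.42 did not pass (limma adjusted p = 0.173). Ccl7 and Ccl12 were no brighter than the floor on any array, with differences of 0.18 and 0.22.

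The probe sets of Ccr2, the receptor that brings inflammatory monocytes out of the marrow, went in different directions. The one used, with the highest mean, read 5.76, 5.41, 5.61 and 4.996 in knockout livers, against 5.74, 5.91 and 5.80 in wild-type livers, a difference of -0.37 (limma adjusted p = 0.341). Another read 5.88, 5.65, 5.42 and 5.27 in knockout livers, against 4.85, 4.94 and 5.08 in wild-type livers, a difference of 0.59 (limma adjusted p among all probe sets = 0.124). The next differed by 0.77 and passed over all probe sets (0.0418), though 6 of its 7 values were at or under the floor. The last, under it throughout, differed by 0.22. No direction is given for Ccr2, since its mean over all 4 probe sets was 0.30 higher in the knockout. Ccr2 was the only member with another probe set that rose above the floor and had the opposite sign (2 of 13 such probe sets).

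**Figure D3:**
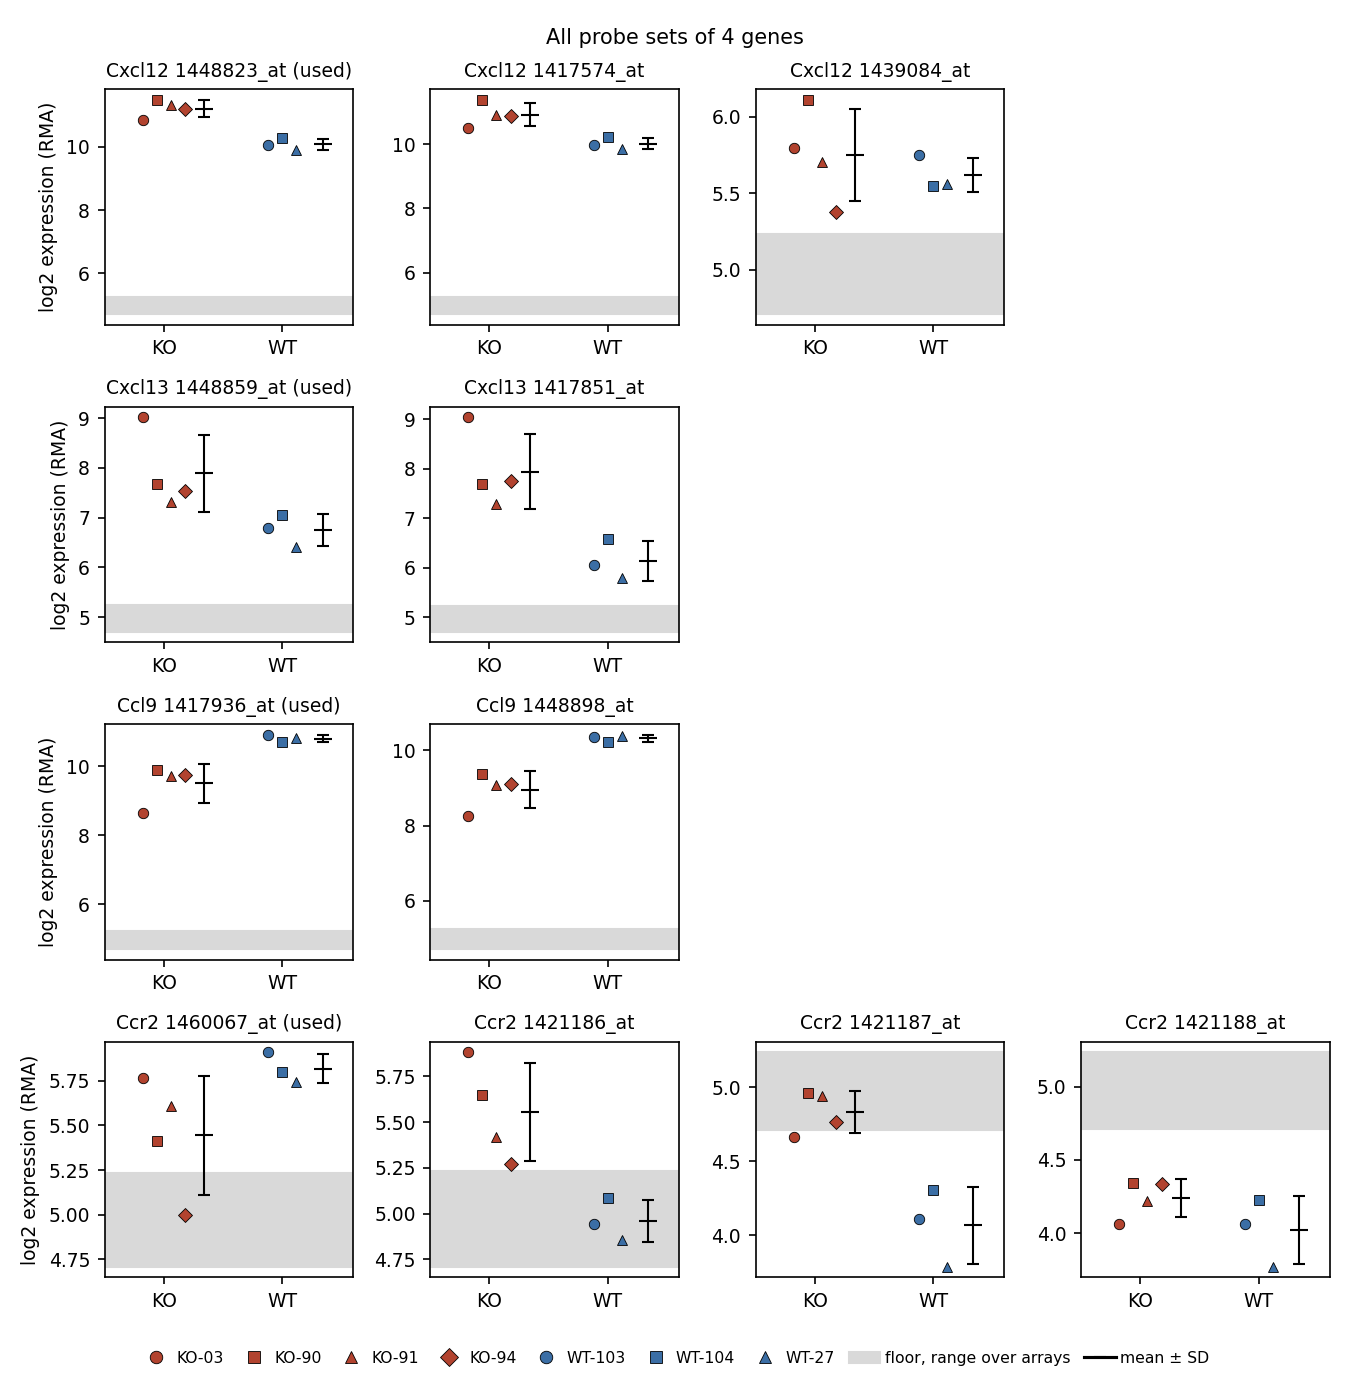
Log2 expression (y axis) of every probe set of Cxcl12, Cxcl13, Ccl9 and Ccr2 (rows) on the knockout (KO, red) and wild-type (WT, blue) arrays, with mean ± SD beside the points and the floor's range in grey; the probe set used is marked and y axes differ. Both probe sets of Cxcl13 and of Ccl9 go one way, whereas the used probe set of Ccr2 differs by -0.37 and its others by 0.59, 0.77 and 0.22.

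Cxcl13, the B cell attractant of lymphoid follicles, had a difference as large as that of Cxcl12 with a wider spread. It read 9.01, 7.68, 7.32 and 7.54 in knockout livers, against 6.41, 6.79 and 7.05 in wild-type livers. Knockout and wild-type values did not overlap and KO-03 was the highest. The means were 7.89 ± 0.77 (SD, n = 4) in knockout and 6.75 ± 0.32 (SD, n = 3) in wild type, and the difference of 1.14 ± 0.37 (SE) did not pass (limma adjusted p = 0.155). Without KO-03 the difference was 0.76 and passed (limma adjusted p = 0.0455).

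The second probe set of Cxcl13 differed by 1.81 (limma adjusted p among all probe sets = 0.0599). Its receptor Cxcr5, carried by B cells, was under the floor throughout, with a difference of 0.18. Of 3 measured B cell markers 0 passed, beside 3.53% of all genes, and Cd79a and Ms4a1 were under the floor on every array. The B cell list mean was 4.48 to 5.26 in knockout and 4.38 to 4.68 in wild type.

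Cxcl16, a membrane-bound ligand that also binds oxidised lipoprotein, read 7.12, 7.84, 7.57 and 8.04 in knockout livers, against 6.70, 6.77 and 7.20 in wild-type livers. Only KO-03 and WT-104 overlapped. Its difference of 0.75 ± 0.22 (SE) did not pass (limma adjusted p = 0.118) but did without KO-03 (0.0208, difference 0.93), and a second probe set differed by 0.79. Cxcr6, the receptor of Cxcl16 on NKT and resident T cells, had all knockout arrays above all wild-type arrays and a difference of 0.27, but lay under the floor on all 7 arrays. Cxcl14, made by many epithelia, read 5.55, 4.88, 5.54 and 6.34 in knockout livers, against 4.62, 4.79 and 5.07 in wild-type livers, with 1 knockout and 2 wild-type arrays at or under the floor. KO-90 lay among the wild types, and the difference of 0.75 did not pass (limma adjusted p = 0.234) and was 0.499 without KO-94. The second probe set of Cxcl14 had a larger difference, 1.37, which did not pass over all probe sets either (limma adjusted p = 0.243). Its groups overlapped too, and 3 of its 7 values were at or under the floor.

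Among the neutrophil attractants that signal through Cxcr2, only Cxcl1 exceeded the floor on any array, and it varied widely between animals of each genotype. Cxcl1 read 9.90, 6.93, 6.99 and 8.66 in knockout livers, against 7.82, 8.13 and 6.64 in wild-type livers. The groups overlapped, KO-03 and KO-94 were high, and the means of 8.12 ± 1.43 (SD, n = 4) in knockout and 7.53 ± 0.78 (SD, n = 3) in wild type differed by 0.59 with a 95% interval of -0.99 to 2.17 (limma adjusted p = 0.748). Without KO-03 the Cxcl1 difference was -0.0016, and without one other array it ranged from 0.15 (WT-104) to 0.99 (KO-90). Cxcl2, Cxcl3, Cxcl5 and Cxcl15 were no brighter than the floor on any array, with differences of 0.24, 0.06, 0.08 and -0.13, and so was Cxcr2, at 0.23. Cxcr1 was not analysed here.

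Among 6 measured neutrophil markers, the calprotectin subunits S100a8 and S100a9 rose, by at least 3.25 and by 3.16 (limma adjusted p = 0.0163 and 0.0171). The list mean was 5.86 to 6.72 in knockout and 4.76 to 5.21 in wild type. Mpo and Camp were under the floor on all 7 arrays and Elane, at 5.05 to 5.29 in knockout and 4.93 to 5.28 in wild type, was close to it. S100a8 read 8.96, 7.73, 7.60 and 9.996 in knockout livers, against 4.48, 5.65 and 5.61 in wild-type livers, with KO-03 and KO-94 high, as for Cxcl1. The neutrophil receptor Csf3r, which exceeded the floor on every array, differed by 0.38 and did not pass (limma adjusted p = 0.447), with 6.84 in KO-03 and 6.03 in KO-94. The part of neutrophils in these values was not tested.

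The remaining ligands, several of them homeostatic or mucosal, did not pass, and 5 of the 10 were at or under the floor throughout. Ccl24, an eosinophil attractant, differed by -0.17, Ccl25, which guides cells to thymus and gut, by -0.20, and Ccl28, a mucosal ligand, by -0.23. A second Ccl25 probe set read 4.53, 4.86, 4.88 and 4.72 in knockout livers, against 5.24, 5.50 and 5.06 in wild-type livers. Its groups did not overlap, but only WT-27 and WT-103 exceeded the floor. Tested among all probe sets, its difference of -0.52 did not pass (limma adjusted p = 0.136). The skin ligand Ccl27a differed by 0.05 with WT-27 at 6.91 and the other 6 arrays between 5.23 and 6.17. Its probe set is of a kind that can hybridise to near-identical copies, so that value is uncertain. Cxcl17, another mucosal ligand, differed by 0.04. The differences of those 5, Ccl11, Ccl20, Ccl17, Ccl22 and Ccl1, ranged from -0.26 (Ccl1) to 0.28 (Ccl11).

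Most of their receptors never exceeded the floor. Ccr10, which binds Ccl27a and Ccl28, was above the floor on 6 of the 7 arrays, reading 5.06 to 5.25 in knockout and 4.63 to 5.34 in wild type, with a difference of 0.17. Ccr3 on eosinophils, Ccr4 and Ccr8 on T cell subsets, Ccr6, the receptor of Ccl20, Ccr7, which directs cells to lymph nodes, and Ccr9, the receptor of Ccl25, were at or under the floor on every array. Their differences lay between -0.24 (Ccr4) and 0.21 (Ccr7), and none passed.

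Knockout animals differed more from each other than wild-type animals did, for these genes as for the array at large. The SD over knockout arrays exceeded that over wild-type arrays in 32 of the 45 genes (71.1%), beside 63.7% of all genes. Of the 22 genes above the floor on some array, the deviations above 2 from the wild-type mean were in KO-94 for Ccl6 and in KO-03 for Cxcl1, Cxcl13 and Ccl2, and the one below -2 was also in KO-03, for Ccl9. KO-03, the knockout nearest to wild type over all genes, was thus the one farthest from it for Cxcl1, Cxcl13, Ccl2 and Ccl9.

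Other genes of the chemokine system, whose symbols fall outside the rule, gave 2 rises and 0 falls among 16, beside 2.58% of all genes called higher and 0.951% called lower, with a median difference of 0.15. Pf4, a platelet CXC chemokine, read 5.82, 6.05, 6.52 and 6.72 in knockout livers, against 5.07, 5.25 and 5.30 in wild-type livers, and rose by 1.07 (limma adjusted p = 0.0284). Cx3cr1, the fractalkine receptor of patrolling monocytes and macrophages, rose by at least 0.53 (limma adjusted p = 0.0470), with all 3 wild-type arrays under the floor. Its ligand Cx3cl1 differed by 0.06. Cd74, a receptor subunit for Mif that also chaperones class II antigens, differed by 1.42 and did not pass (limma adjusted p = 0.0919), and Mif differed by -0.10.

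Of 21 measured genes of signalling behind chemokine receptors, 0 passed, with a median of 0.19. Beside 3.53% of all genes, 0 of 21 is near the background. The smallest p-values were those of Pik3r5, a PI3K-gamma adaptor under the floor throughout, at 0.63, the arrestin Arrb2 at 0.47 and the receptor kinase Grk3 at 0.56 (limma adjusted p = 0.0767, 0.117 and 0.149). Of 27 measured NF-κB and cytokine genes, only some of which act upstream of chemokines, 3 rose and 0 fell, with a median of 0.32. Among all genes 2.58% were called higher and 0.951% lower, so 0 falls among 27 is near the background. The adhesion molecule Vcam1 rose by 0.96, the NF-κB inhibitor Tnfaip3 by at least 0.92 and the AP-1 subunit Jun by 1.32 (limma adjusted p = 0.0154, 0.0313 and 0.0379). The cytokines Tnf and Il1b did not pass, at -0.08 and 0.37, and Il6 was under the floor on every array. The 5 pathway genes called higher became 14 without KO-03 and 0 without WT-103, and 1 to 3 without each of the other arrays. The number of all genes called higher moved too, from 470 with all arrays to 132 without WT-103.

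Dendritic cell markers gave 0 calls among 5, beside 3.53% of all genes, with Xcr1 under the floor throughout. Their list means were 4.79 to 5.14 in knockout and 4.67 to 4.89 in wild type. The part of B, T, NK and dendritic cells in the chemokine values was not tested.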

How the data were processed

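Biotin-labelled cRNA from total RNA of frozen livers was read on Affymetrix mouse arrays, per the labels. The deposited values are log2, 1 for each probe set on each array, and the authors made them by RMA (Partek), per the submitters' processing notes. RMA narrows differences near the floor. No version is stated in the labels.

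Among 45101 probe sets, 34945 named 1 gene by GEO's platform annotation. Where a gene had several, the one with the highest mean over all arrays, knockout arrays included, stood for it. limma 3.58.1 (R 4.3.3; lmFit, eBayes, no covariate, two-sided) tested knockout minus wild type, with p-values adjusted by Benjamini-Hochberg over 18193 genes, or over 45037 probe sets where stated, and a threshold of 0.05. The fit was tested on simulated data. Animal numbers and no litters are given, so p-values measure the spread between these animals. "At least" marks a difference with the dimmer genotype raised to the floor, which was chosen after the data were seen.

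The members and lists were chosen with earlier results of these data known. Any member may be named. Members that passed, or had no overlap and a difference of at least 0.5, are given per array, and so are others picked after their values were seen. From each other list the called genes and the 3 with the smallest p may be named, and further genes were named after their values were seen. Promoter motifs were chosen late too, and searches for a κB-like and an interferon-response-like motif are not reported. Promoters come from RefSeq (GRCm38.p6), which matched 32 of 45 members.

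Alternatives changed the prior (trend, robust), array weights, normalization (quantile, median), dim-gene filters, the choice of probe set, the thresholds and the arrays included. Figures were drawn with matplotlib 3.10.9 in Python 3.11.15.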

Additional observations from a re-analysis of the deposited data

Results flagged for a closer look

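In 6 of 50 genes examined (the 45 members and the 5 pathway genes that passed), 1 of the 4 knockout arrays stood apart from the other 3 by Dixon's criterion for 4 values, where chance gives about 1 in 20. KO-03 was low for Ccl9, at 8.65 against 9.71 to 9.89 on the other knockout arrays, and high for Cxcl2, at 4.002 against 3.07 to 3.19, all under the floor. KO-90 was high for Ccl5, at 6.52 against 5.57 to 5.70, for Cxcl9, at 8.64 against 7.42 to 7.53, and for Ccr7, at 4.39 against 3.74 to 3.85, the last under the floor. KO-90 was low for Ccl3, at 3.55 against 3.87 to 3.93, also under the floor.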

How the results depend on the processing

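No paired analysis was possible because the animal numbers of the labels do not recur between genotypes. None of the 45 genes changed the sign of a called difference in 20 alternatives, and 39 passed in no setting. Cxcl12 passed in 19 of 20, Ccl9 in 13 of 20 and Cxcl11 in 12 of the 18 that tested it. Cxcl13, Cxcl16 and Cxcr4 passed only when KO-03 was left out, alone or with WT-104, and, for Cxcl16 and Cxcr4, with array weights. Leaving out 1 array gave 0 to 4 members called higher, 0 to 2 called lower, a median difference of chemokine genes of 0.057 to 0.18 and 0 to 14 pathway genes called higher. The joint omission of KO-03 and WT-104, added after the data were seen, gave 4 higher members, a median of 0.0708 and 12 pathway genes. Array weights gave 3 higher members, a median of 0.10 and 11 pathway genes. Members called lower were 1 with genes at or above the median level, with a group mean of at least 6, with the mean of all probe sets and with a fold of at least 2, and 0 at an adjusted p under 0.01. The first of these filters left 12 members, a median of 0.26 and 3 pathway genes, and the second left 9 members and a median of 0.59. Pathway genes were 3 with a fold of at least 2 and 0 at an adjusted p under 0.01. The number of all genes called higher ranged from 132 (without WT-103) to 909 (array weights), and of all genes called lower from 31 (adjusted p under 0.01) to 344 (array weights). Where no reason is given, the cause was not tested. Most receptors were too close to the floor for a difference to be measured.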

Other observations

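Probe sets that name several near-identical genes, left out of the 45 genes, hold 3 further chemokines. The Ccl19 probe set, for a ligand of Ccr7 made in lymphoid stroma, read 7.04, 7.31, 7.20 and 8.18 in knockout livers, against 6.23, 6.70 and 6.62 in wild-type livers. There was no overlap between genotypes, and the difference of 0.91 did not pass over all probe sets (limma adjusted p = 0.158). The Ccl21 probe set, for the other Ccr7 ligand, read 5.97, 8.08, 6.57 and 6.69 in knockout livers, against 5.88, 5.79 and 6.24 in wild-type livers. KO-90 was high, and the difference of 0.86 did not pass (limma adjusted p = 0.427). The 2 probe sets shared by Ccl27a and Ccl27b differed by 0.09 and 0.08, with WT-27 the highest array in both.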
